A study of Fukomys damarensis and Heterocephalus glaber and Mus musculus with 160 samples.

Results

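Guinea pig enhancers that carried the marks of activity in one tissue and the mark of priming alone in the other were collected in both directions between liver and heart. There were 3684 liver-active, heart-primed regions and 2430 heart-active, liver-primed regions, 6114 in all, out of 168114 active, primed and promoter regions of the 2 tissues. An enhancer is a stretch of DNA that raises transcription of a gene at a distance. Monomethylation of histone H3 at lysine 4 (H3K4me1) covers enhancers whether they are in use or held ready, acetylation at lysine 27 (H3K27ac) is added by the coactivators p300 and CBP at enhancers and promoters in use, and trimethylation at lysine 4 (H3K4me3) marks promoters. An enhancer with H3K4me1 and no H3K27ac is called primed. Such elements are known for gaining acetylation in another cell type, at another stage or on a signal.

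The study compared regulatory chromatin of mole-rats with that of the guinea pig and the mouse by chromatin immunoprecipitation followed by sequencing (ChIP-seq). The 18 lists used here came from 3 wild-type adult male guinea pigs (Cavia porcellus) aged 2.3 months, named GuineaPig7, GuineaPig8 and GuineaPig9 and called animals 7, 8 and 9 below. Liver and heart were taken from each animal, and each tissue gave 1 library per mark, so every group of 1 tissue and 1 mark held 3 libraries. The labels name no treatment and no engineered allele. Whole diced organ was used, so each list mixes the cell types of that organ.

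A list held between 14782 and 136264 peaks, and 56.9% to 97.0% of them had a −log10 q of at least 4. Read depth is unknown, because the lists carry no read numbers. For every mark, 2 lists of the same tissue shared more bases than 2 lists of different tissues: the Jaccard index, bases covered by both over bases covered by either, was 0.563 to 0.650 within and 0.221 to 0.258 between tissues for H3K27ac, 0.373 to 0.602 against 0.153 to 0.204 for H3K4me1, and 0.733 to 0.806 against 0.448 to 0.551 for H3K4me3. Within heart, H3K4me1 lists reached only 0.373 to 0.429, and within liver 0.556 to 0.602. The 3 heart libraries of animal 9 carry names that start with other letters than the remaining 15, which the labels do not explain. Some results are therefore also given without that animal, though not every result that moved. Genes near the regions, the tissues' marker genes and the sequence of the regions were not analysed here.

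A consensus region of a tissue and mark was a merged set of peaks that each overlapped a peak of another animal by at least 50% of the shorter, and the same overlap counted as shared everywhere else. Active meant H3K27ac with H3K4me1 and without H3K4me3, and primed meant H3K4me1 with neither of the others. Of 35504 liver active enhancers, 3684 overlapped a heart primed region, which is 10.4% (Wilson 95% interval 10.1% to 10.7%). Of 23962 heart active enhancers, 2430 overlapped a liver primed region, which is 10.1% (9.77% to 10.5%). These counts are the rule itself and carry no test, and the intervals cover counting error only.

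Seen from the primed side, 3911 of the 35014 heart primed regions (11.2%) were active in liver, and 2388 of the 42199 liver primed regions (5.66%) were active in heart. Pairing was mostly 1 to 1. Of the liver-active regions, 3404 (92.4%) met a single heart primed region, and of the heart-active regions, 2345 (96.5%) met a single liver primed region. Several members shared a primed region in 5.84% of the first direction and 11.2% of the second, so these are not separate sites on the primed side.

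Other liver active enhancers served as the comparison. There were 21791 with no consensus region of any mark in heart and 5849 that were active in heart too, and 4180 met other combinations. For heart the numbers were 10768, 6644 and 4120. Thus a heart active enhancer had no mark in liver in 44.9% of cases and a liver active enhancer had none in heart in 61.4%.

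The counts moved with the animals. With consensus replaced by the lists of 1 animal, 5550, 4793 and 7144 liver-active, heart-primed regions were found in animals 7, 8 and 9, or 10.2%, 9.42% and 15.1% of the liver active enhancers (11.6% ± 3.06, SD, n = 3). In the other direction the numbers were 4095, 4009 and 2805, or 11.9%, 11.1% and 8.15% (10.4% ± 1.97). Animal 9 had the highest share in the first direction and the lowest in the second. Its heart H3K4me1 list was the longest of the 3, with 130362 peaks against 90479 and 106576. Without animal 7, 8 or 9 the same rule gave 2540, 2892 and 2200 of the first kind. Without the heart H3K4me1 library alone of animal 7, 8 or 9 it gave 2819, 2596 and 2388 (7.94%, 7.31% and 6.73% of the liver active enhancers). The second direction had 1558, 1455 and 1845 members without animal 7, 8 or 9. Without the liver H3K4me1 library alone of animal 7, 8 or 9 it had 1612, 1909 and 1944 (6.73%, 7.97% and 8.11% of the heart active enhancers). A consensus of 2 libraries needs both, so each of these removals is also a stricter rule. In bulk tissue, a mark held by fewer cells and a weaker mark in each cell cannot be told apart.

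The strictest members were those with H3K27ac and H3K4me1 in all 3 animals of the active tissue, H3K4me1 in all 3 of the primed tissue, and no H3K27ac or H3K4me3 peak in any list of the primed tissue. They numbered 474 of 3684 (12.9%) and 333 of 2430 (13.7%). The fold enrichment over background that the authors' peak caller gave each peak, averaged over the 3 H3K27ac lists, had a median of 6.42 (2.95 to 33.1) in the first set and 7.32 (3.79 to 28.4) in the second. Coordinates below are on the Cavpor3.0 build, counted from 1, and those scaffolds are not assigned to chromosomes here.

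The highest mean H3K27ac enrichment among strict liver-active regions was at DS562931.1:3923173-3929260, a stretch of 6088 bases. Liver H3K27ac enrichment was 47.8, 29.9 and 21.4 in animals 7, 8 and 9, and liver H3K4me1 was 22.9, 10.2 and 9.80. In heart no H3K27ac peak met it in any animal, while heart H3K4me1 peaks of 6.31, 4.57 and 6.87 did. It held 2 heart primed regions, at 3924115 to 3926856 and 3927976 to 3928717, of 2742 and 742 bases. All 3 liver lists of each activity mark had the region and the 3 heart lists had H3K4me1 alone. Outside it, heart H3K27ac peaks were listed in all 3 animals, the nearest starting 3.63 kb to the right of its centre.

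**Figure D1:**
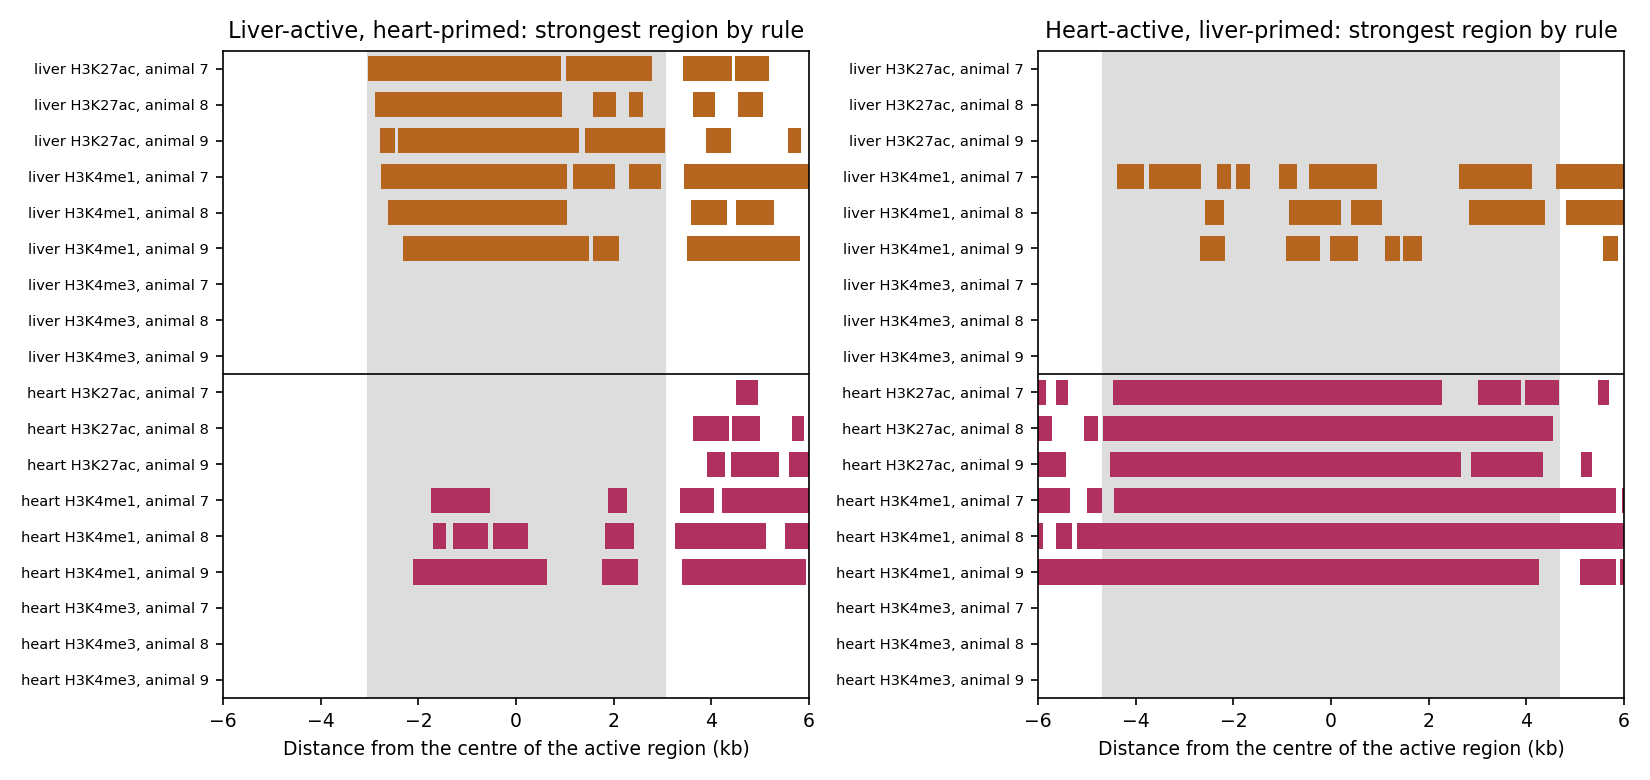
Peaks of the 18 lists (1 row each, liver above the line and heart below) around the member of each direction with the highest mean H3K27ac enrichment among strict members; the horizontal axis is the distance from the centre of the active region in kb and the grey band is that region. On the left, liver H3K27ac and H3K4me1 cover most of the left side of the band in all animals and heart has only H3K4me1 inside it; on the right, heart covers most of the band and liver has several separate H3K4me1 peaks; no list has an H3K4me3 peak in either band.

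The next 2 liver-active regions in that order differed in shape. At DS562895.1:17703791-17711507, 7717 bases long, liver H3K27ac enrichment was 30.7, 33.3 and 23.6, and heart H3K4me1 was 4.98, 4.95 and 4.00 over a primed region of 1278 bases. At DS562862.1:52182305-52184897, 2593 bases long, liver H3K27ac was 34.4, 18.6 and 33.6, and the heart primed region of 963 bases ran past its right edge, with 95.6% of it inside. The remaining 3 of the leading 6 were DS562863.1:19761698-19766080 (27.5, 42.3 and 13.0), DS562873.1:12950056-12954002 (31.1, 27.5 and 19.4) and DS562863.1:17145764-17151566 (25.4, 22.2 and 27.5). Their mean H3K27ac enrichments were 27.6 ± 14.7, 26.0 ± 6.01 and 25.0 ± 2.68 (SD, n = 3). The strongest heart H3K4me1 peak of each list on the 6 regions lay between 3.01 and 6.87, and the strongest liver one between 4.83 and 22.9.

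A typical strict member was far weaker. The 2 liver-active regions nearest the median were DS562885.1:22153809-22154990, with liver H3K27ac of 8.37, 5.82 and 5.10, and DS562875.1:31250401-31252556, with 3.78, 7.15 and 8.30. Heart H3K4me1 was 5.05, 7.30 and 4.18 at the first, where the liver values were 3.17, 3.25 and 5.27. Enrichments from different lists rest on different depths and are set side by side only as a description.

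Among heart-active regions the leader was DS562882.1:12350334-12359667, which covered 9334 bases. Heart H3K27ac enrichment there was 19.6, 38.2 and 27.6 in animals 7, 8 and 9 and heart H3K4me1 was 12.5, 14.3 and 16.5. The strongest liver H3K4me1 peaks on it were 6.48, 6.25 and 4.53, and no liver H3K27ac peak met the region. It held 3 liver primed regions, at 12352311 to 12352947, 12353927 to 12356041 and 12357631 to 12359389, of 637, 2115 and 1759 bases. One long acetylated stretch of heart thus lay over several separate methylated pieces of liver.

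At DS562857.1:67424705-67427905 heart H3K27ac was 27.3, 26.8 and 25.0, the smallest spread among the leading heart regions (26.4 ± 1.19, SD, n = 3), and liver H3K4me1 was 5.25, 3.83 and 6.19. The other leaders were DS562870.1:37598449-37603746 (20.9, 18.6 and 14.2), DS562920.1:1263084-1265686 (21.1, 15.8 and 14.7), DS562859.1:29735303-29738064 (19.5, 14.6 and 17.0) and DS562872.1:6106098-6109198 (19.8, 17.1 and 13.8). The DS562859.1 region lay 0.112 kb from a heart promoter region, and heart H3K4me3 peaks of 5.21 and 5.75 touched it in animals 7 and 9 without a consensus H3K4me3 region meeting it. The 2 regions nearest the median were DS562928.1:7879426-7881218 (6.72, 6.06 and 9.18) and DS562862.1:45611549-45613531 (8.53, 8.83 and 4.60). At the first of them liver H3K4me1 was 12.4, 9.77 and 6.20 beside 9.96, 6.73 and 8.00 in heart.

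The best primed region overlapped the whole of the shorter region in 64.1% of liver-active and 63.3% of heart-active members, and the overlap was under 60% in 4.64% and 5.39%. A further 708 liver and 470 heart active enhancers touched a primed region of the other tissue by less than the threshold. Just inside lay DS562915.1:9542971-9543866 and DS562861.1:5561917-5562873 for liver, at 50.0% and 50.1%, and DS562893.1:11954664-11955969 and DS562873.1:30003686-30006215 for heart, both at 50.0%. Just outside lay DS562941.1:3262196-3262868 and DS562993.1:899796-900242 for liver, both at 49.9%, and DS562868.1:24053584-24054696 and DS562890.1:20833430-20834932 for heart, at 49.9% and 49.8%. Their liver H3K27ac enrichments ranged from 2.66 to 11.1 where a peak was listed, and their heart ones from 3.94 to 9.84 on the heart side.

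Members were not free of acetylation in the primed tissue. A region that overlapped a primed region could also meet another consensus region, and 611 liver-active members (16.6%) met a heart H3K27ac consensus region and 285 heart-active members (11.7%) a liver one. Single lists held more. Of the liver-active members, 1979 (53.7%) met no heart H3K27ac peak in any animal, 882 met one in 1 list, 301 in 2 lists and 522 (14.2%) in all 3. Of the heart-active members, 1363 (56.1%) met no liver H3K27ac peak, 648 met one in 1 list, 211 in 2 and 208 (8.56%) in 3. By animal, the heart lists of animals 7, 8 and 9 had H3K27ac at 26.7%, 33.8% and 22.4% of liver-active members, and the liver lists had it at 28.4%, 16.5% and 24.7% of heart-active members. Active enhancers with no mark in the other tissue met no H3K27ac peak there in 93.8% and 86.5%, a class defined by the absence of a consensus region in these same lists.

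**Figure D2:**
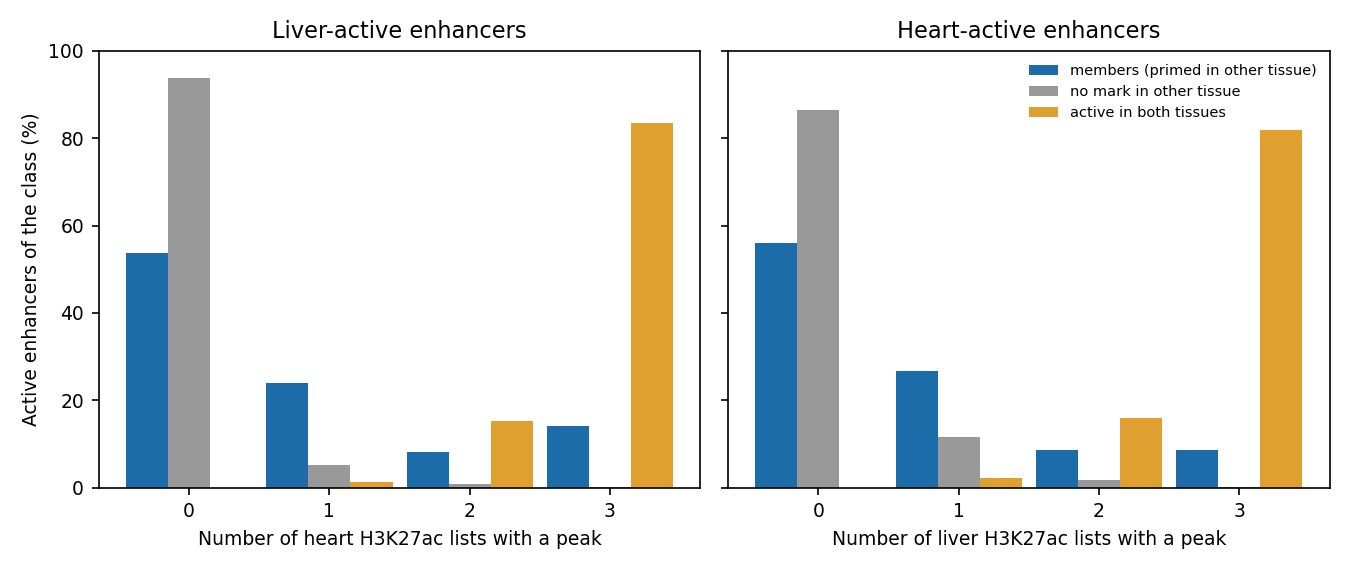
Share of active enhancers (vertical axis, %) by the number of H3K27ac lists of the other tissue, 0 to 3, that had a peak on them; left, liver-active enhancers against heart lists, right, heart-active against liver lists. Members (blue) were at 0 in 53.7% and 56.1%, between enhancers with no mark (grey, 93.8% and 86.5%) and those active in both tissues (yellow, mostly at 3). Both comparison classes are defined from these same lists, so this order is set by the classes.

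Where the primed tissue had acetylation on a member, it stood lower in its own list than the acetylation of the active tissue did. In animals 7, 8 and 9 the 982, 1244 and 824 liver-active members with a heart H3K27ac peak had a median enrichment of 5.21, 5.28 and 5.91, or 0.939, 0.955 and 0.958 times the median of all peaks in that list. The 955, 1183 and 796 members with a peak in both lists stood at 0.939, 0.973 and 0.958 times the heart list median and at 1.92, 1.67 and 1.95 times the liver list median. The 670, 392 and 548 heart-active members with a peak in both lists stood at 0.873, 0.836 and 0.875 times the liver list median and at 1.40, 1.63 and 1.41 times the heart list median. These values come from the lists that chose the members and are given as a description. Requiring H3K27ac in 3 of 3 lists of the active tissue and 0 of 3 of the primed tissue left 1247 liver-active members (33.8%, against 43.9% of all liver active enhancers) and 796 heart-active members (32.8%, against 27% of all heart active enhancers). H3K4me1 was in 3 of 3 lists of both tissues at 1897 (51.5%, background 19.1%) and 1074 (44.2%, background 25.5%), which the rule selects for.

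To measure the marks outside the lists that chose the members, members were defined from 2 animals, both needed, and read in the lists of the third. Animals 7, 8 and 9 in turn tested 2540, 2892 and 2200 liver-active regions. Liver H3K27ac was present at 90.2%, 86.3% and 87.7% of them and heart H3K27ac at 39.7%, 51.7% and 36.2%. Every liver value was above every heart value. The mean was 88.1% ± 1.99 in liver and 42.5% ± 8.10 in heart (SD, n = 3), a difference of 45.5 percentage points (50.5, 34.6 and 51.5 by animal; two-sided exact permutation p = 0.1, adjusted 0.15 over 6 comparisons). With 3 libraries against 3 this test cannot go below 0.1, so no comparison of this kind could pass a threshold of 0.05.

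For heart-active members, 1558, 1455 and 1845 regions were tested. Heart H3K27ac was at 86.1%, 90.9% and 78.5% and liver H3K27ac at 47.9%, 26.7% and 40.3% in animals 7, 8 and 9. The heart values did not overlap the liver values. The means were 85.2% ± 6.25 and 38.3% ± 10.7, and the difference was 46.9 percentage points (38.3, 64.3 and 38.3; exact permutation p = 0.1, adjusted 0.15). In the same measure, active enhancers with no mark in the other tissue had it at 5.81% ± 2.00 in heart and 13.9% ± 7.31 in liver, and those active in both had it at 93.9% ± 3.22 and 93.4% ± 4.10.

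**Figure D3:**
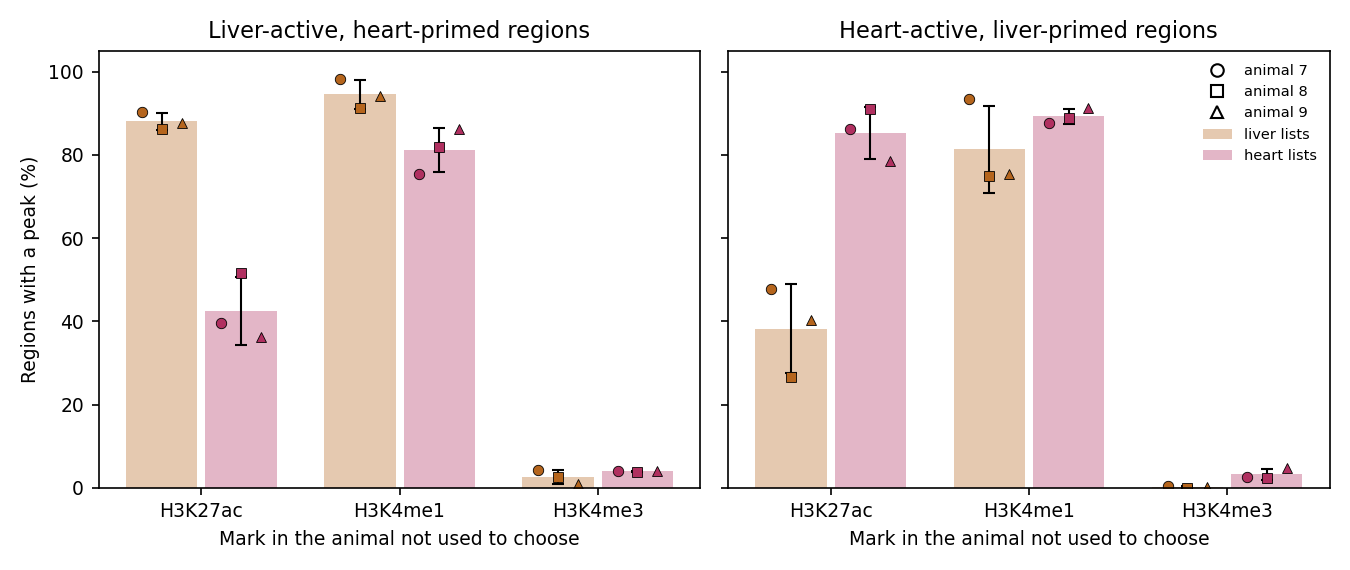
Share of members with a peak of each mark (vertical axis, %) in the animal that was not used to choose them, in liver lists (brown) and heart lists (pink); points are animals, bars the mean and whiskers the SD (n = 3). H3K27ac was at 78.5% to 90.9% in the active tissue and at 26.7% to 51.7% in the primed tissue, while H3K4me1 was at 75.0% to 98.2% across both and H3K4me3 below 5% in all lists.

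H3K4me1 was less uneven. In liver-active members it was at 98.2%, 91.3% and 94.2% in liver and at 75.5%, 81.8% and 86.1% in heart, a difference of 13.5 percentage points (22.8, 9.51 and 8.09; exact permutation p = 0.1, adjusted 0.15). Without animal 7, 8 or 9 it was 25.5, 23.3 and 24.2, where the members rest on the lists of 1 animal. In heart-active members it was at 87.7%, 88.7% and 91.2% in heart and at 93.5%, 75.0% and 75.4% in liver, a difference of 7.94 percentage points with animal 7 in the opposite direction (−5.71, 13.7 and 15.8; exact permutation p = 0.4, adjusted 0.4). It was 14.5, 12.3 and 13.6 without animal 7, 8 or 9, 4.89 at a −log10 q of at least 4 and −5.12 with 50% of the longer. H3K4me3 stayed rare: it was at 4.17%, 2.56% and 1.00% of liver-active members in liver and at 4.02%, 3.84% and 4.00% in heart (difference −1.37, exact permutation p = 0.4, adjusted 0.4). That difference was −4.52 with 50% of the longer, −0.527 with a single base, −2.15 without animal 7 and −0.802 without animal 9. Heart-active members had H3K4me3 at 2.50%, 2.41% and 4.82% in heart and at 0.449%, 0.0687% and 0.108% in liver, a difference of 3.04 percentage points with no overlap between the tissues (exact permutation p = 0.1, adjusted 0.15), and of 1.87 without animal 9.

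The full state, active in one tissue and primed in the other, returned in the third animal at 34.4%, 26.4% and 41.0% of liver-active members (33.9% ± 7.30, SD, n = 3) and at 32.7%, 40.4% and 26.9% of heart-active members (33.3% ± 6.78). Almost as many were active in both tissues there: 29.0%, 37.1% and 28.7% in the first direction and 38.5%, 20.2% and 27.5% in the second. Active with no mark in the other tissue accounted for 11.4% ± 3.96 and 10.8% ± 6.80, primed in both for 5.60% ± 0.943 and 6.31% ± 2.32, and the swapped state, primed where the other 2 animals were active, for 1.59% ± 0.664 and 2.01% ± 1.14. Enhancers that 2 animals gave as unmarked in the other tissue took the member state in the third at 6.67% ± 2.79 and 6.81% ± 2.90, and those active in both at 3.38% ± 2.01 and 3.42% ± 2.31. Both other classes returned to their own state more often: active in both returned at 73% ± 3.85 of liver and 70.8% ± 6.20 of heart enhancers, and active with no mark in the other tissue at 70.3% ± 5.23 and 52.4% ± 11.3. The state was read over the whole active region, so an H3K27ac or H3K4me3 peak of the primed tissue anywhere on it counted against the member state. Membership allows such a peak outside the primed region, and 16.6% and 11.7% of consensus members met an H3K27ac consensus region there. By this reading, stricter than the rule, the member state was the least repeated of the 3 by mean in both directions.

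The primed regions themselves were read in the same way, over the primed region in place of the active one. The classes of primed region were not matched for width. Heart primed regions that were active in liver had held-out heart H3K27ac at 29.0%, 44.2% and 22.3% in animals 7, 8 and 9, and heart primed regions without any liver mark had it at 20.9%, 29.8% and 15.1%. The difference was 9.90 percentage points (8.09, 14.4 and 7.21; two-sided exact sign-flip p = 0.25, adjusted 0.333 over 4). It was 16.8 with 50% of the longer and 8.03 with a single base. Without animal 7, 8 or 9, where the regions rest on the lists of 1 animal, it was 7.03, 8.40 and 6.88. Liver primed regions that were active in heart had held-out liver H3K27ac at 44.5%, 25.5% and 38.1%, against 19.5%, 23.6% and 18.5% at liver primed regions without any heart mark. That difference was 15.5 percentage points, small in animal 8 (25.0, 1.85 and 19.7; exact sign-flip p = 0.25, adjusted 0.333). It was 14.9 with 50% of the longer, 13.7 with a single base, and 10.6, 10.4 and 10.4 without animal 7, 8 or 9. Without animal 9 the remaining animals differed in direction. Regions primed in both tissues had the lowest held-out H3K27ac of the 3 classes by mean, 13.8% ± 4.53 in heart and 19.0% ± 0.836 in liver. The smallest p that 3 animals allow in the sign-flip test is 0.25.

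The H3K4me1 of these primed regions was seen again more often where the other tissue was active in heart lists, at 72.1%, 78.2% and 79.4% against 58.2%, 64.8% and 69.3% (difference 12.5 percentage points, 3 of 3 animals positive; exact sign-flip p = 0.25, adjusted 0.333). That difference was 22.2 with 50% of the longer, 10.5 with a single base, and 18.1, 19.0 and 16.0 without animal 7, 8 or 9. In liver lists the H3K4me1 was at 93.0%, 77.4% and 77.6% against 86.6%, 84.0% and 68.9%, a difference of 2.85 with animal 8 negative (6.41, −6.58 and 8.72; exact sign-flip p = 0.75, adjusted 0.75), 11.9 with 50% of the longer and 6.89 to 7.45 with each animal left out. By the 50% of the shorter rule the heart lists gave 1 direction in all animals and the liver lists did not, and the difference between the tissues was not tested.

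Within the active tissue, the strength of the marks at members was compared with other active enhancers of the same list, again in the animal that was not used to choose. Median H3K27ac enrichment at liver-active members was 7.93, 7.23 and 7.12 in animals 7, 8 and 9, at liver enhancers with no heart mark 7.22, 7.54 and 6.84, and at those active in both 9.03, 7.09 and 8.41. The log2 ratio to the unmarked class averaged 0.04 (0.13, −0.06 and 0.06; exact sign-flip p = 0.75, adjusted 0.75 over 8) and to the class active in both −0.13 (−0.19, 0.03 and −0.24; p = 0.5, adjusted 0.571). The liver classes thus overlapped, with animal 8 opposite to the other two in both comparisons. With each animal left out, where the classes rest on the lists of 1 animal, the first ratio was 0.11 to 0.16 and the second −0.03 to 0.01. With 50% of the longer they were 0.01 and −0.22.

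In heart the order held in every animal. Median H3K27ac enrichment was 7.30, 7.93 and 7.62 at heart-active members, 6.53, 7.38 and 6.89 at heart enhancers with no liver mark, and 8.00, 9.35 and 8.53 at those active in both. Members stood 0.14 above the first (0.16, 0.10 and 0.15; log2) and 0.18 below the second (log2 ratio −0.18; −0.13, −0.24 and −0.16), each with an exact sign-flip p of 0.25, adjusted 0.333. With 50% of the longer they were 0.25 and −0.32, and leaving out each animal moved the second to between −0.11 and −0.10. In fold these are 1.10 and 0.884.

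Median H3K4me1 enrichment in liver was 9.50, 7.28 and 7.25 at liver-active members, 7.70, 6.61 and 6.00 at enhancers with no heart mark, and 9.20, 6.45 and 6.89 at those active in both. Members were the highest of the 3 classes in every liver list, by log2 0.24 over the first (0.30, 0.14 and 0.27) and 0.10 over the second (0.05, 0.18 and 0.07; exact sign-flip p = 0.25, adjusted 0.333 for both). With an overlap of 50% of the longer region the first was 0.12 (exact sign-flip p = 0.5) and the second turned to −0.04. In heart the medians were 6.31, 6.31 and 6.67 at members, 5.71, 5.63 and 5.89 with no liver mark and 6.53, 6.55 and 6.87 active in both. There members were above the first by log2 0.16 (0.15, 0.17 and 0.18) and below the second by a log2 ratio of −0.05 in all animals (exact sign-flip p = 0.25, adjusted 0.333 for both), which was −0.11 with 50% of the longer and −0.03 without animal 7. By the 50% of the shorter rule, in 6 of 6 lists the median H3K4me1 enrichment of members was above that of enhancers with no mark in the other tissue.

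**Figure D4:**
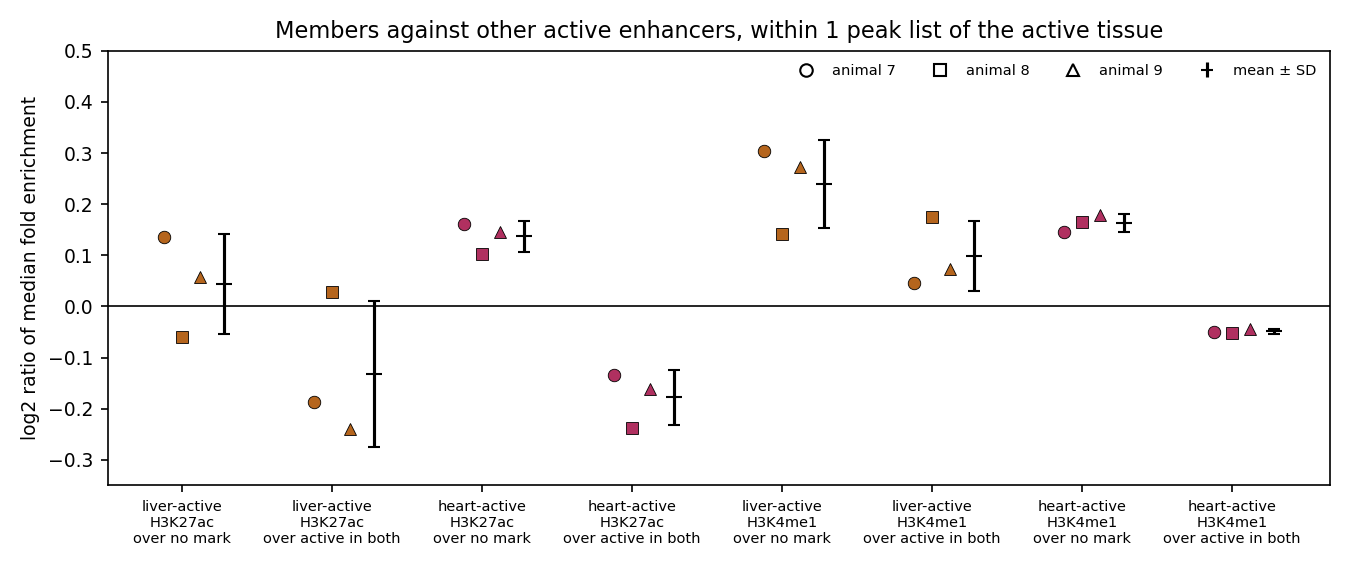
Log2 ratio of the median fold enrichment of members to that of another class of active enhancer in the same list of the active tissue (vertical axis), for 2 marks, 2 directions and 2 classes; points are animals not used to choose, bars the mean ± SD (n = 3). Ratios of H3K4me1 over enhancers without a mark in the other tissue are above 0 in all animals, from 0.14 to 0.30, and those of H3K27ac in liver fall on both sides of 0.

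The widest H3K4me1 peak on a member was, by median, wider than the median peak of its list in both tissues. Taking the widest of several peaks raises this ratio by itself. Relative to the list median these peaks were wider where the member was active. Under the rule an H3K4me1 region that contains an H3K27ac or H3K4me3 region of its tissue is not primed, which favours narrow primed regions. The test below therefore cannot separate a difference in width from the rule. Over the held-out lists of animals 7, 8 and 9, the widest H3K4me1 peak on liver-active members had a median of 2861, 2354 and 1877 bases in liver. In heart it was 736, 708 and 886 bases. The median peak of those lists was 660, 655 and 597 bases in liver and 488, 434 and 493 in heart, so the ratios were 4.33, 3.59 and 3.15 in liver and 1.51, 1.63 and 1.80 in heart. The log2 difference was 1.16 (1.52, 1.14 and 0.81; exact permutation p = 0.1, adjusted 0.1 over 2). On heart-active members the widths were 1127, 1049 and 1387 bases in heart and 1315, 945 and 807 in liver, or 2.31, 2.42 and 2.81 against 1.99, 1.44 and 1.35 times the list median, a log2 difference of 0.67 (0.21, 0.74 and 1.06; exact permutation p = 0.1, adjusted 0.1).

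In bases, animal 7 was opposite for heart-active members, with the wider peaks in liver. With an overlap of 50% of the longer region in place of the shorter, which gives 741 liver-active and 818 heart-active members, the log2 difference of the first direction was −9.68e-06 and that of the second 0.45. Sorted by width into 4 groups of like size, liver active enhancers were members in 9.22%, 8.63%, 9.38% and, for those of 2209 bases or more, 14.3%. In heart the groups from narrow to wide gave 10.5%, 9.31%, 9.05% and 11.7%. The median member was 1437 bases wide in liver and 1027 in heart, against 1086 and 824 at enhancers with no mark in the other tissue and 1701 and 1360 at those active in both.

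Members lay closer to promoters than enhancers with no mark in the other tissue in every animal, though 3 animals cannot bring the test below 0.25. A promoter region was H3K27ac with H3K4me3 in the active tissue, and the regions were rebuilt from each animal alone. The median distance of liver-active members to the nearest liver promoter was 16.1, 13.6 and 17.1 kb in animals 7, 8 and 9, against 23.7, 24.6 and 25.8 kb for enhancers with no heart mark and 20.2, 20.2 and 20.8 kb for those active in both. Member and other values did not overlap. The log2 ratios were −0.67 (−0.56, −0.86 and −0.59) and −0.40 (−0.33, −0.58 and −0.28), each with an exact sign-flip p of 0.25, adjusted 0.25 over 4. With an overlap of 50% of the longer region they were −0.38 and −0.02 (exact sign-flip p = 0.25 and 1), and with the nearest H3K4me3 region of either tissue as the target the second was −0.25.

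For heart-active members the medians were 15.6, 16.1 and 17.2 kb, against 24.2, 26.4 and 26.6 kb with no liver mark and 17.9, 17.9 and 17.2 kb active in both. The ratio to the first was −0.66 in log2 (−0.63, −0.71 and −0.63; exact sign-flip p = 0.25, adjusted 0.25). The ratio to the second was −0.12 and close to 0 in animal 9 (−0.20, −0.15 and −0.00088; exact sign-flip p = 0.25, adjusted 0.25), and an overlap of a single base turned it to 0.03. It was −0.02 with 50% of the longer, −0.07 at a −log10 q of at least 4, −0.08 without animal 7 and −0.05 to the nearest H3K4me3 region of either tissue. In the consensus of 3 animals the medians were 18.5 kb for liver-active and 18.8 kb for heart-active members, with 28.8 and 28.6 kb for the unmarked classes and 22.6 and 19.4 kb for those active in both.

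**Figure D5:**
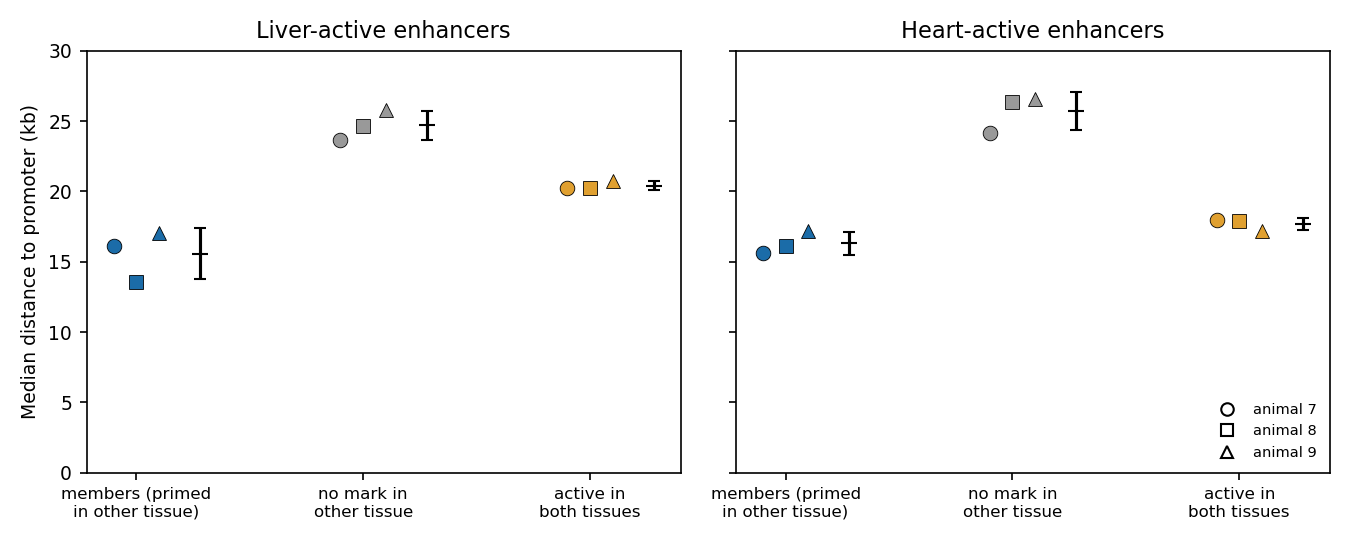
Median distance (vertical axis, kb) from active enhancers of each class to the nearest promoter of the same tissue, with regions rebuilt from each animal alone; points are animals and whiskers the mean ± SD (n = 3). Members lie at 13.6 to 17.2 kb in both panels, below enhancers with no mark in the other tissue (23.7 to 26.6 kb) in every animal.

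A part of the members sat on or beside an H3K4me3 region of either tissue. In the rebuilt sets 18.1% ± 1.57 of liver-active members were within 2 kb of one, against 8.73% ± 0.112 of enhancers with no heart mark and 10.9% ± 1.28 of those active in both (SD, n = 3). The differences were 9.37 and 7.16 percentage points, positive in 3 of 3 animals (exact sign-flip p = 0.25, adjusted 0.25 over 12), and with 50% of the longer as the overlap the second was −0.0886. Heart-active members were within 2 kb in 15.0% ± 0.543, against 7.89% ± 0.729 and 9.53% ± 0.906 (differences 7.13 and 5.48, positive in 3 of 3; exact sign-flip p = 0.25, adjusted 0.25). A single base of overlap gave 3.28 and 0.83 here and 3.31 for liver against the class active in both, and 50% of the longer gave 13.1 and 2.47. The rule bars H3K4me3 of the active tissue on the active region and H3K4me3 of the primed tissue on the primed region, not beside them. In the consensus 69 liver-active and 4 heart-active members met an H3K4me3 region of the primed tissue, which counts as within 2 kb. The unmarked class meets no such region by definition, so a part of the difference from it is set by the classes.

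Members also sat next to each other. The nearest active enhancer on either side was itself a member for 38.6% ± 5.56 of liver-active members in the rebuilt sets (38.0%, 33.4% and 44.4%), against 17.4% ± 4.48 and 22.8% ± 4.06 in the unmarked class and the class active in both. For heart-active members it was 35.2% ± 6.63 (41.1%, 36.3% and 28.0%), against 18.7% ± 3.89 and 15.9% ± 1.91. All 4 differences, from 15.8 to 21.3 percentage points, were positive in 3 of 3 animals (exact sign-flip p = 0.25, adjusted 0.25). With 50% of the longer as the overlap, those against the class active in both were 1.59 and 3.86 (exact sign-flip p = 0.5 each) and those against the unmarked class 12 and 7.64, and with a single base 3 of the 4 were between 25.8 and 30.6. Members that share a primed region count here as neighbours of each other.

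Members of opposite direction lay near each other more often than enhancers without a mark, and less often than enhancers active in both tissues. Within 50 kb of an opposite member were 33.1% ± 2.91 of liver-active members, 16.5% ± 1.00 of the unmarked class and 53.9% ± 4.63 of the class active in both (SD, n = 3). For heart-active members these were 45.9% ± 6.08, 30.8% ± 4.70 and 66.7% ± 4.46. The differences of 16.6 and 15.2 percentage points were positive and those of −20.7 and −20.8 negative in 3 of 3 animals (exact sign-flip p = 0.25, adjusted 0.25). With 50% of the longer as the overlap, that of heart-active members against the unmarked class was 5.69 and the negative ones −7.07 and −5.83. An opposite member is an active region of the other tissue, so the unmarked class shares none by definition. An enhancer active in both can overlap one, which counts as within 50 kb. A part of these differences is thus set by the classes. In the consensus 877 of 3684 liver-active members (23.8%) and 802 of 2430 heart-active members (33.0%) had an opposite member within 50 kb.

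Along the genome the members were spread over 196 scaffolds in the first direction and 186 in the second. Among the 51 scaffolds with at least 200 liver active enhancers, the share that were members ran from 3.70% on DS562890.1 (11 of 297) to 17.0% on DS562906.1 (46 of 271), with a median of 10.4%. Among 36 such scaffolds for heart it ran from 5.23% on DS562874.1 (19 of 363) to 13.0% on DS562859.1 (92 of 708), with a median of 9.95%. The densest 1 Mb windows held 18 members among 50 liver active enhancers at DS562893.1:10000001-11000000 and 17 among 66 heart active enhancers at DS562910.1:6000001-7000000. These extremes were picked from all scaffolds and windows and carry no test.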

How the data were processed

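Guinea pig ChIP-seq was used as deposited peak lists, 1 per library against 1 named input library, per the file names. MACS2 is named in the submitters' processing notes; no source used here gives the aligner or settings. The authors' lists hold each peak's fold enrichment, a ratio over background, and its −log10 p-value and −log10 q-value, of which the lowest q value deposited was 1.30 on that scale. Peaks of 1 library did not overlap each other, so none were merged within a library. Fold was compared within 1 list only, taking the strongest peak on a region. Liver and heart libraries with the same number came from the same animal, per the labels, which pairs them. The permutation tests do not use this pairing, and the replicate block does. Exact permutation tests (3 libraries against 3) and exact sign-flip tests (3 animals) were two-sided, with Benjamini-Hochberg adjustment per family at 0.05. Code was tested on simulated peaks. Named regions were the 6 strict members with the highest mean H3K27ac fold and the 2 nearest the median, plus 2 on each side of the overlap threshold. Members, lists and tests were chosen with earlier results of these data known. Planned gene lists and motif searches were not analysed here. Alternatives covered the overlap rule, the q threshold, all 3 animals, equal peak numbers, scaffolds of at least 1 Mb, and leaving out animals and libraries. In the held-out results, leaving out 1 animal left the classes to be defined from the lists of 1 animal, so those values also reflect a changed definition. Software was Python (3.11.15) with SciPy (1.17.1), pandas (2.3.3), NumPy (2.4.6) and Matplotlib (3.10.9).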

Additional observations from a re-analysis of the deposited data

Results flagged for a closer look

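The H3K4me1 enrichment of members relative to enhancers active in both tissues had opposite signs in the 2 directions. In the liver lists of the animal not used to choose, the log2 ratio was 0.0983, above 0 in 3 of 3 animals, and in the heart lists it was −0.0486, below 0 in 3 of 3 animals. With an overlap of 50% of the longer region both were below 0, −0.0439 and −0.109. The difference between the directions was not tested.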

How the results depend on the processing

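The number of members depended on the processing, and the direction of most comparisons was kept. Liver-active members numbered 741 (4.64% of liver active enhancers) with an overlap of 50% of the longer region, 2281 at a −log10 q of at least 4, 1881 when all 3 animals were required and 2201 (6.39%) when no peak of a single animal was allowed to contradict the state; leaving out animals or single libraries gave 2200 to 4810 members and 6.73% to 13.5%. Heart-active members numbered 818, 1551, 1254 and 1338 (5.74%) under the same changes, and 1455 to 3271 or 6.73% to 13.7% with animals or libraries left out. Of 228 alternatives to the 36 tested results, 221 kept the direction, though often not the size, most of all with 50% of the longer. The 221 include the replicate block of the held-out and width results, which keeps the value, changes only the p and so could not turn. No adjusted p was below 0.1, which is the least the design allows. The 7 that turned were, with 50% of the longer, held-out H3K4me1 in heart-active members (−5.12 percentage points), H3K4me1 fold in liver over the class active in both (log2 −0.0439), H3K4me1 width in liver (log2 −9.68e-06) and the share within 2 kb of H3K4me3 against the class active in both (−0.0886 percentage points); with 1 base, H3K27ac fold in liver over the unmarked class (log2 −0.0038) and promoter distance in heart over the class active in both (log2 0.0274); and without animal 7, H3K27ac fold in liver over the class active in both (log2 0.00786; −0.0254 to 0.00786 with each animal left out). The cause was not tested. With animals as a replicate block, the held-out H3K27ac differences stayed at 45.5 and 46.9 percentage points with an exact sign-flip p of 0.25, adjusted 0.375. The block gave an exact sign-flip p of 0.25 for both width results. For liver-active and heart-active members it gave 0.25 and 0.5 for held-out H3K4me1, and 0.5 and 0.25 for H3K4me3. Neither the unpaired test nor the block could pass 0.05 with 3 animals, so the block says nothing about stability. Sequence alternatives were not run, for want of a guinea pig genome here. Depth is unknown, so a mark that is not listed is not shown to be absent.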
